A study of Papio anubis with 24 samples.

Results

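Endometriosis arises in baboons without intervention, and it can also be induced by seeding the peritoneal cavity with menstrual tissue. The comparison described here set the eutopic endometrium, the lining inside the uterus, of animals with spontaneous disease against that of animals with induced disease. It drew on 12 of the 24 small RNA libraries of the series, 4 from spontaneous and 8 from induced disease, and the other 12 came from lesions of the same 12 animals. The question was whether the way the disease began is accompanied by a difference in the microRNAs (miRNAs) of the endometrium itself.

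The 4 spontaneous libraries came from the female olive baboons (Papio anubis) PA5655, PA6303, PA6627 and PA6762. The 8 induced libraries came from PA7254, PA7255, PA7258, PA7457, PA7223, PA7524, PA7539 and PA7696, which had been inoculated intraperitoneally with menstrual tissue on consecutive cycles and were sampled 15 months after induction. Groups follow the title and the group given for each sample, while another field of the labels, on treatment, names induction for all 24 samples, the spontaneous ones included. Every library is one animal, so the groups hold separate animals and no endometrium was sequenced more than once. How long the spontaneous disease had existed, the age of the animals and the sequencing batch were not stated in the labels or the methods. The paper calls the induced 15-month tissue it stained mid-secretory, and for the sequenced libraries, spontaneous ones included, no cycle phase was found. Library codes begin with a different letter in each disease, so any batch tied to those codes cannot be told apart from the disease. No healthy endometrium was part of the 24 libraries, so the values say how both diseases compare with each other and not how either compares with health.

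miRNAs are short RNAs that guide Argonaute proteins to messenger RNAs and lower their translation and stability. Many are made mainly in one cell type: miR-143 and miR-145 in smooth muscle and fibroblasts, miR-1 and miR-133 in muscle, miR-144 and miR-451a in red blood cells, miR-142 and miR-223 in leukocytes, the miR-200 family in epithelium, and miR-34b/c and miR-449 in ciliated cells. The endometrium combines a glandular epithelium, stroma, vessels and immune cells over a layer of smooth muscle, the myometrium, and it changes through the cycle, so its miRNA profile also carries the makeup of each biopsy. In such bulk samples, more cells of a type and more RNA per cell cannot be told apart.

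Raw counts were summed to 3014048 to 3935626 per spontaneous library (median 3688036, n = 4) and 2592999 to 7287883 per induced library (median 5070999.5, n = 8). The table names 2656 mature miRNAs, of which 625 to 751 had a count in a library and 507 reached at least 2 CPM, counts scaled to the total of the library, in at least 2 of the 12 libraries and were tested. Levels below are CPM after TMM scaling, in which edgeR aligns the bulk of the miRNAs between libraries, and 3 counts, taken as the floor, lay at 0.401 to 1.56 CPM. Because TMM factors were 0.534 in PA5655 and 0.591 in PA6303 against 0.933 to 1.43 in the other 10 libraries, the scaled levels of a library need not sum to the same total. Of the markers of other organs, miR-122 of the liver and the 19 listed miRNAs of the placental C19MC cluster had at most 1 count, and 1 of 11 gonadal miRNAs reached the filter. Other members were measured: miR-885-5p of the liver list at 4.16 to 11.2 CPM in spontaneous and 2.37 to 60.2 CPM in induced endometrium, and 5 of 7 neuronal miRNAs at a summed 81.2 to 254 CPM and 67.8 to 313 CPM, most of it miR-128-3p. The 11 measured epithelial miRNAs were present in every library, at a summed 10939 to 23110 CPM in spontaneous and 13649 to 31052 CPM in induced endometrium.

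Several libraries stood apart from the rest of their own group. PA5655 and PA6303 held far more miR-143-3p than the rest, at 31.0% and 24.9% of their counts, against 10.1% in PA6627, 10.7% in PA6762 and 4.88% to 12.3% in the induced libraries. PA6627 held the red cell miRNAs at levels no other library approached. Among the induced animals, PA7696 held the ciliated cell miRNA miR-34c-5p at 1306 CPM, and PA7539, the library with the fewest counts, lay farthest out on the first principal component among induced libraries (14.7, with 30.2% of the variance), on the side opposite to PA5655 (−24.1). Any 2 spontaneous libraries differed by a median of 0.685 on the log2 scale per miRNA (range over 6 pairs 0.468 to 0.912). A spontaneous and an induced library differed by 0.563 (32 pairs, 0.373 to 1.24) and 2 induced libraries by 0.497 (28 pairs, 0.287 to 0.992). Libraries of different disease thus lay no farther apart, at the median, than libraries of spontaneous disease among themselves.

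No miRNA passed the comparison of spontaneous with induced endometrium. Of 507 miRNAs, 0 (0%) had an adjusted p under 0.05 in edgeR's quasi-likelihood test (Benjamini-Hochberg), the source of each adjusted p below unless another test is named, and the smallest adjusted p was 0.123. Before adjustment 54 had p under 0.05, with 30 higher in spontaneous endometrium (5.92% of those tested) and 24 lower (4.73%). The median log2 fold change over all 507 was 0.01, with 258 above and 249 below 0. It was −0.30 when levels were scaled by library totals alone, so a fold change on that scale has to be read against this shift. An exact two-sided permutation test of log2 CPM over every way to choose 4 of 12 libraries gave 36 miRNAs with p under 0.05 and 0 after adjustment (smallest adjusted p 0.512), where the smallest p it can give is 0.00202. Adjustment over 507 miRNAs could pass one only if many came near that p, so this 0 adds little.

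The precision of the comparison differed by miRNA. Standard errors of the log2 fold changes had a median of 0.384. For 179 of the 507 miRNAs (35.3%) the 95% confidence interval, not adjusted for the number tested, lay within a 2-fold difference in either direction, and so did those of 85 of the 155 miRNAs at 100 CPM or more (54.8%). For the other miRNAs a difference of 2-fold or more lay inside the interval. Within groups the SD of log2 CPM had a median of 0.596 in spontaneous and 0.575 in induced endometrium, and 295 miRNAs varied more among the spontaneous animals.

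**Figure D1:**
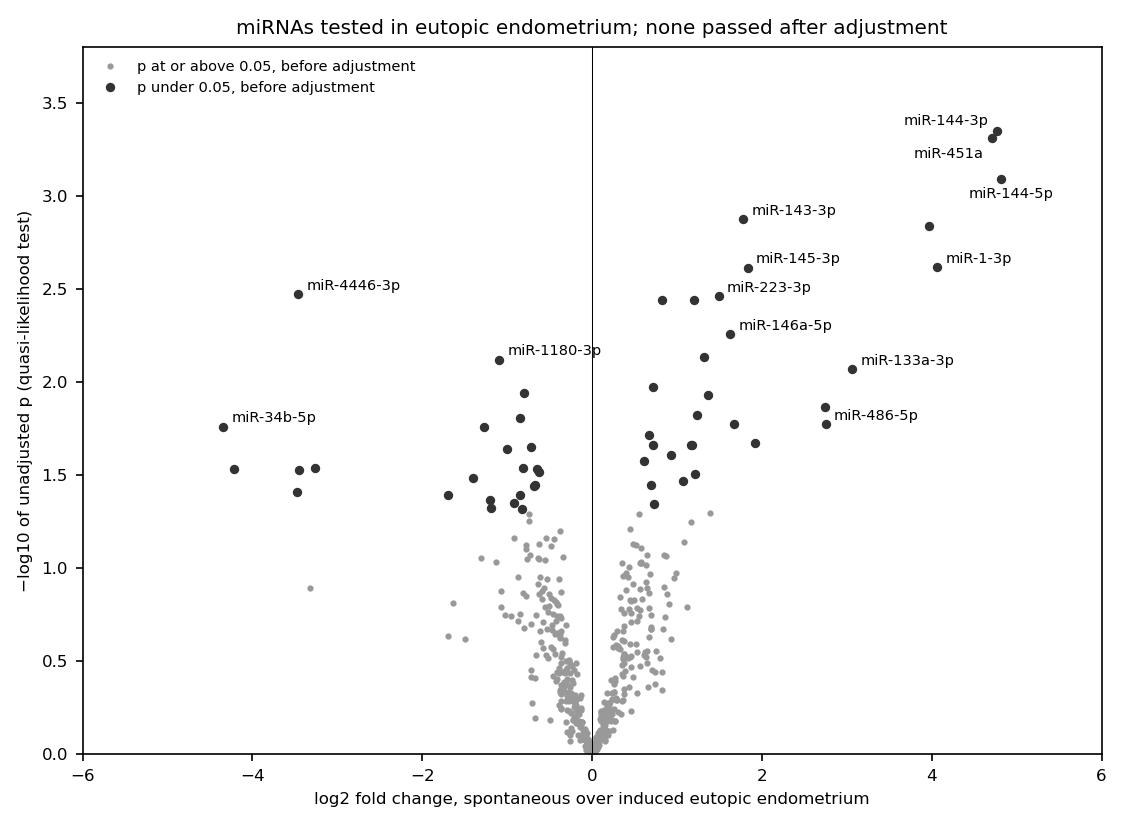
Each point is 1 of the 507 miRNAs tested, with its log2 fold change of spontaneous over induced eutopic endometrium on the x axis and −log10 of its unadjusted p from edgeR's quasi-likelihood test on the y axis. Dark points have p under 0.05 before adjustment (30 to the right and 24 to the left of 0), and the upper right holds the red cell and muscle miRNAs.

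The muscle miRNAs were among the largest differences, and they came from PA5655 and PA6303. miR-143-3p, made with miR-145 from one transcript and a regulator of the contractile state of smooth muscle, stood at 580635 CPM in PA5655, 421796 CPM in PA6303, 82702 CPM in PA6627 and 89234 CPM in PA6762. In induced endometrium it ranged from 34001 to 115194 CPM (median 85461, n = 8). The levels of PA6627 and PA6762 lay inside the induced range and those of PA5655 and PA6303 above it. The log2 fold change was 1.78 with a standard error of 0.45, and edgeR gave an adjusted p of 0.147.

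The same libraries were high for the other products of this transcript. miR-145-3p was at 1633, 1302, 176 and 265 CPM in PA5655, PA6303, PA6627 and PA6762, against 73.7 to 344 CPM (median 252) in induced endometrium. miR-145-5p, which restrains the pluripotency factors and promotes smooth muscle differentiation, was at 3183, 2224, 539 and 1001 CPM against 312 to 1123 CPM (median 664). miR-143-5p was at 115, 89.8, 24.1 and 33.5 CPM against 21.2 to 34.4 CPM (median 27.5). For each of these 3, PA6627 and PA6762 again fell within the induced range, and the log2 fold changes were 1.83, 1.32 and 1.20.

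miR-1 and miR-133, listed here under striated muscle, showed the same division more sharply. miR-1-3p, a driver of cardiac and skeletal muscle differentiation, was at 423, 242, 7.03 and 2.33 CPM in PA5655, PA6303, PA6627 and PA6762, and at 1.88 to 38.1 CPM (median 5.34) in induced endometrium. Its partner miR-133a-3p was at 695, 451, 9.47 and 6.35 CPM, against 6.94 to 97.4 CPM (median 24.1). miR-133b had 58 and 41 counts in PA5655 and PA6303, 0 in PA6627 (which allows up to 0.812 CPM) and 1 in PA6762, and at most 1.74 CPM in induced endometrium. The log2 fold changes were 4.07 for miR-1-3p (standard error 1.08, adjusted p = 0.167) and 3.06 for miR-133a-3p (standard error 0.99, adjusted p = 0.290) in edgeR's quasi-likelihood test. The highest induced levels of both miR-1-3p and miR-133a-3p belonged to one animal, PA7457.

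Of the 16 listed smooth muscle and fibroblast miRNAs, 0 passed, 6 were higher and 0 lower at an unadjusted p under 0.05, and the median log2 fold change was 0.35 against 0.01 over all 507. Under library totals the median was −0.13 against −0.30 over all, and miR-143-3p was at 1.06, miR-145-3p at 1.11 and miR-145-5p at 0.62. The 6 were the 4 products of miR-143/145 with miR-99a-5p (1.18) and let-7c-5p (1.07), which share a host transcript in humans. The fibroblast miRNAs miR-199a-3p (0.12), miR-214-3p (−0.07) and miR-199b-5p (−0.04) lay close to the median of all miRNAs. miR-199a-3p and miR-199b-3p have the same sequence, so their counts cannot be divided between both genes. Of 5 measured striated muscle miRNAs of 9 listed, 4 were higher at an unadjusted p under 0.05 and the median was 3.06, and miR-499a-5p, from a myosin gene, was at 0.29. The other members of that list were almost absent: miR-1-5p, miR-206 and miR-208b-3p had 0 counts in the eutopic libraries and miR-208a-3p at most 1.

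Both lists depended on PA5655 and PA6303. The log2 fold changes in the remaining 10 libraries were −0.04 for miR-143-3p, −0.16 for miR-145-3p, −1.11 for miR-1-3p and −2.16 for miR-133a-3p. The list medians then were −0.14 for smooth muscle and fibroblast and −1.11 for striated muscle, against −0.09 over all miRNAs. miR-145-5p was at 0.09, the one product of the miR-143/145 transcript that stayed above 0. The summed epithelial miRNAs of PA5655 and PA6303, at 10939 and 23110 CPM, were the lowest and the highest of the 4 spontaneous animals.

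**Figure D2:**
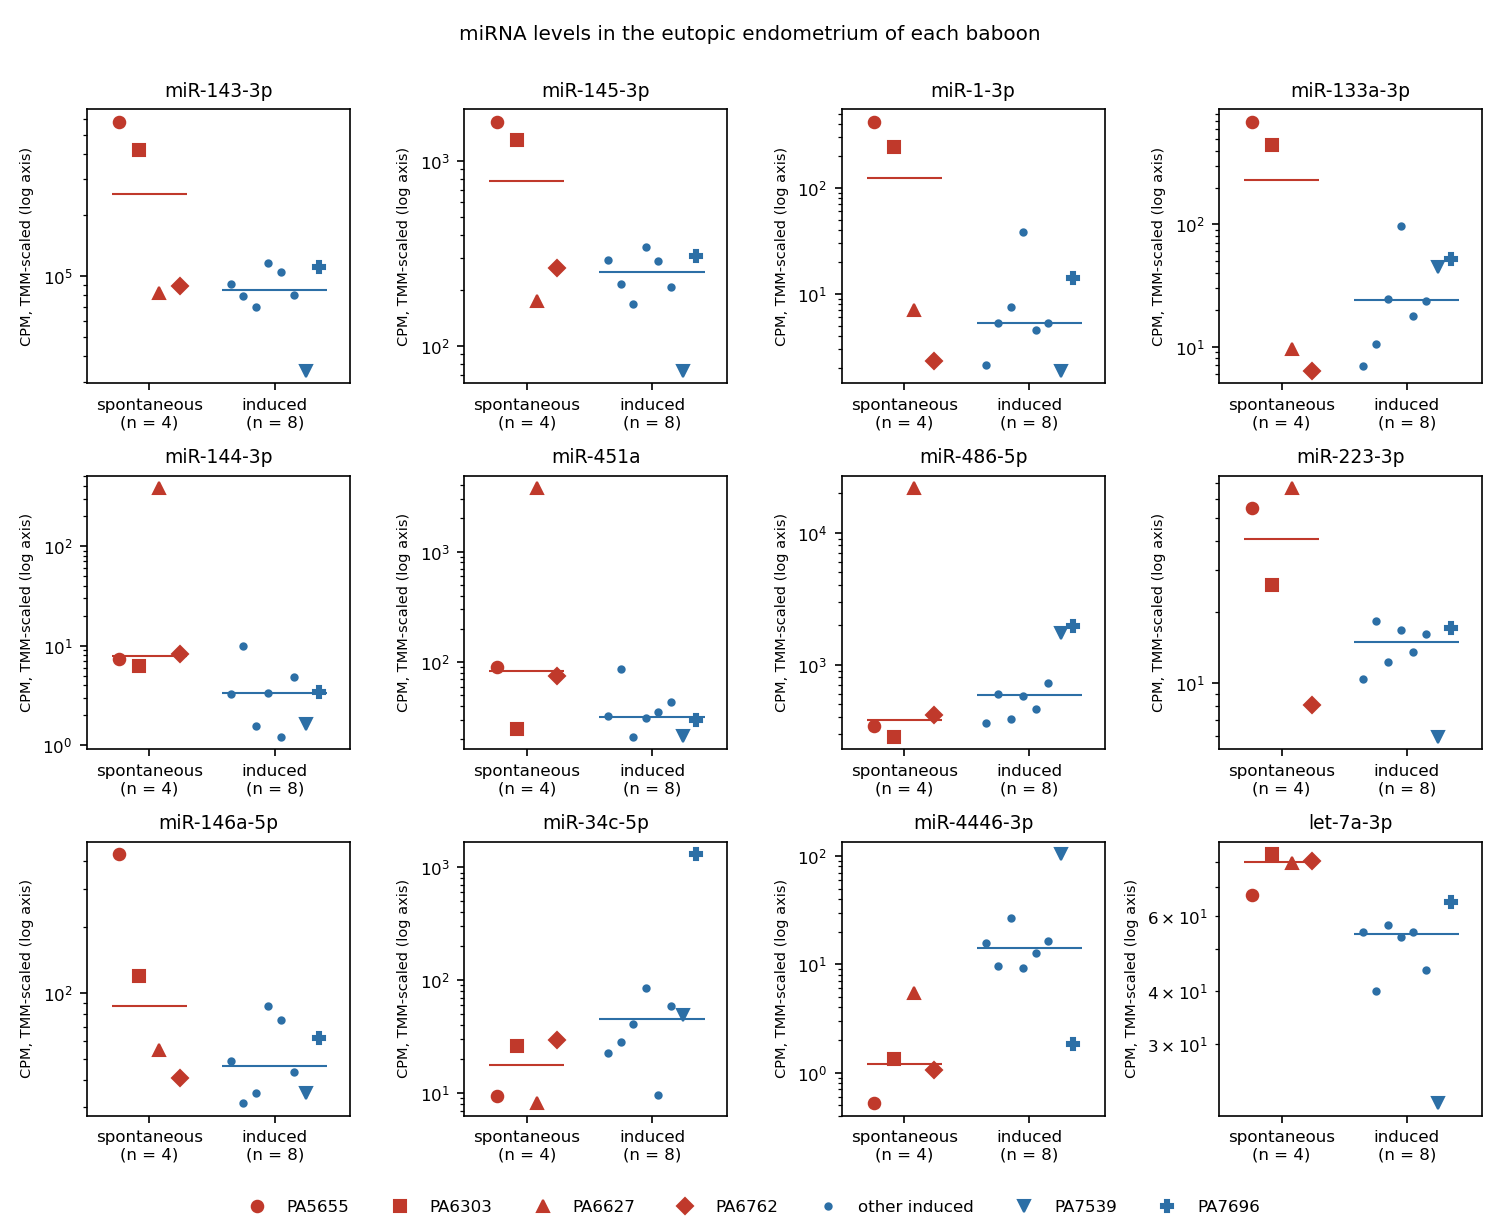
Levels of 12 miRNAs in each of the 12 eutopic libraries, in CPM after TMM scaling on log axes, with spontaneous animals (red, n = 4) left of induced animals (blue, n = 8) and lines at the group medians. PA5655 and PA6303 carry the high levels of miR-143-3p, miR-145-3p, miR-1-3p and miR-133a-3p, PA6627 those of miR-144-3p, miR-451a and miR-486-5p, and induced PA7696 that of miR-34c-5p.

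The red cell miRNAs had the smallest p of the comparison, and here the difference came from PA6627. miR-451a, a highly abundant miRNA of erythrocytes that supports their maturation, was at 89.9 CPM in PA5655, 24.7 in PA6303, 3772 in PA6627 and 75.4 in PA6762, against 20.9998 to 86.9 CPM (median 31.7) in induced endometrium. miR-144-3p, from the same transcript, was at 7.27, 6.28, 383 and 8.26 CPM, against 1.21 to 10.002 CPM (median 3.31). In counts, PA6627 held 1417 of miR-144-3p and the other 11 libraries 4 to 58. For miR-144-3p the other 3 spontaneous libraries also lay in the upper part of the induced range.

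The other red cell miRNAs repeated the pattern in part. miR-144-5p was at 5.20, 1.35, 246 and 2.54 CPM against 0.470 to 4.48 CPM (median 2.34) in induced endometrium. miR-486-5p, abundant in erythrocytes and also made in muscle, was at 342, 283, 21765 and 413 CPM against 363 to 1942 CPM (median 587). Outside PA6627, spontaneous levels of miR-486-5p thus lay below the induced median. The log2 fold changes were 4.77 for miR-144-3p and 4.71 for miR-451a (each with standard error 1.02 and adjusted p = 0.123 in edgeR's quasi-likelihood test), 4.82 for miR-144-5p and 2.75 for miR-486-5p.

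Of the 5 erythroid miRNAs, 4 were higher at an unadjusted p under 0.05, with a list median of 4.71, and miR-486-3p was at −0.50. Without PA6627 the median was 0.40. In that fit of 11 libraries the log2 fold change was 0.98 for miR-144-3p and −1.28 for miR-486-5p, and 0.512 was the adjusted p of miR-144-3p. In PA6627 the summed level of the 8 measured leukocyte miRNAs was 2403 CPM, where the other 3 spontaneous animals had 1103 to 3408 CPM and the induced animals 866 to 1692 CPM. Whether the sample of PA6627 held more blood was not tested.

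Leukocyte miRNAs were higher in part of the spontaneous animals. miR-223-3p, the main miRNA of neutrophils and other myeloid cells, was at 55.1 CPM in PA5655, 26.0 in PA6303, 66.8 in PA6627 and 8.05 in PA6762, against 5.92 to 18.3 CPM (median 14.9) in induced endometrium. After TMM scaling the level lay above every induced library in PA5655, PA6303 and PA6627 and below the induced median in PA6762. Under library totals PA6303, with 58 counts in 3768946, lay below most induced libraries. PA7696, with 65 in 3420097, was one of them. The log2 fold change was 1.49 (standard error 0.43, edgeR adjusted p = 0.167). Without PA5655 and PA6303 it was 1.44, without PA6627 it was 1.09, and without PA6762 it was 1.84.

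miR-142, made in all lineages of blood cells, had a similar order of animals. miR-142-5p was at 1929, 666, 1575 and 260 CPM in PA5655, PA6303, PA6627 and PA6762, against 144 to 803 CPM (median 394). miR-142-3p was at 174, 55.6, 123 and 29.2 CPM, against 12.4 to 69.1 CPM (median 41.6). For both strands PA5655 and PA6627 lay above the induced range and PA6303 and PA6762 inside it. Their log2 fold changes were 1.36 (standard error 0.47) and 1.17 (standard error 0.46).

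miR-146a-5p, which NF-κB induces and which damps Toll-like receptor signalling through IRAK1 and TRAF6, was high in one animal above all. It was at 431 CPM in PA5655, 120 in PA6303, 54.9 in PA6627 and 40.9 in PA6762, against 31.2 to 87.0 CPM (median 46.2) in induced endometrium. Its log2 fold change was 1.63 with a standard error of 0.50 (edgeR adjusted p = 0.233), and it was 0.46 without PA5655. miR-155-5p, induced in activated lymphocytes and macrophages, was at 272, 122, 149 and 191 CPM against 84.9 to 160 CPM (median 115), a log2 fold change of 0.61. miR-150-5p of mature lymphocytes was at −0.30 and miR-342-3p at 0.03.

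Over the 8 measured leukocyte miRNAs of 9 listed, 5 were higher and 0 lower at an unadjusted p under 0.05, and the median log2 fold change was 0.89. It was 0.41 without PA5655 and 0.29 without PA5655 and PA6303. Under library totals the leukocyte median was 0.50, where that of all miRNAs was −0.30. The 12 inflammation-induced miRNAs, which share 3 members with the leukocyte list, had 3 higher, 0 lower and a median of 0.38. The 3 were those shared members, miR-223-3p, miR-146a-5p and miR-155-5p. miR-146b-5p, miR-132-3p and miR-212-3p were at 0.39, 0.40 and 0.27.

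**Figure D3:**
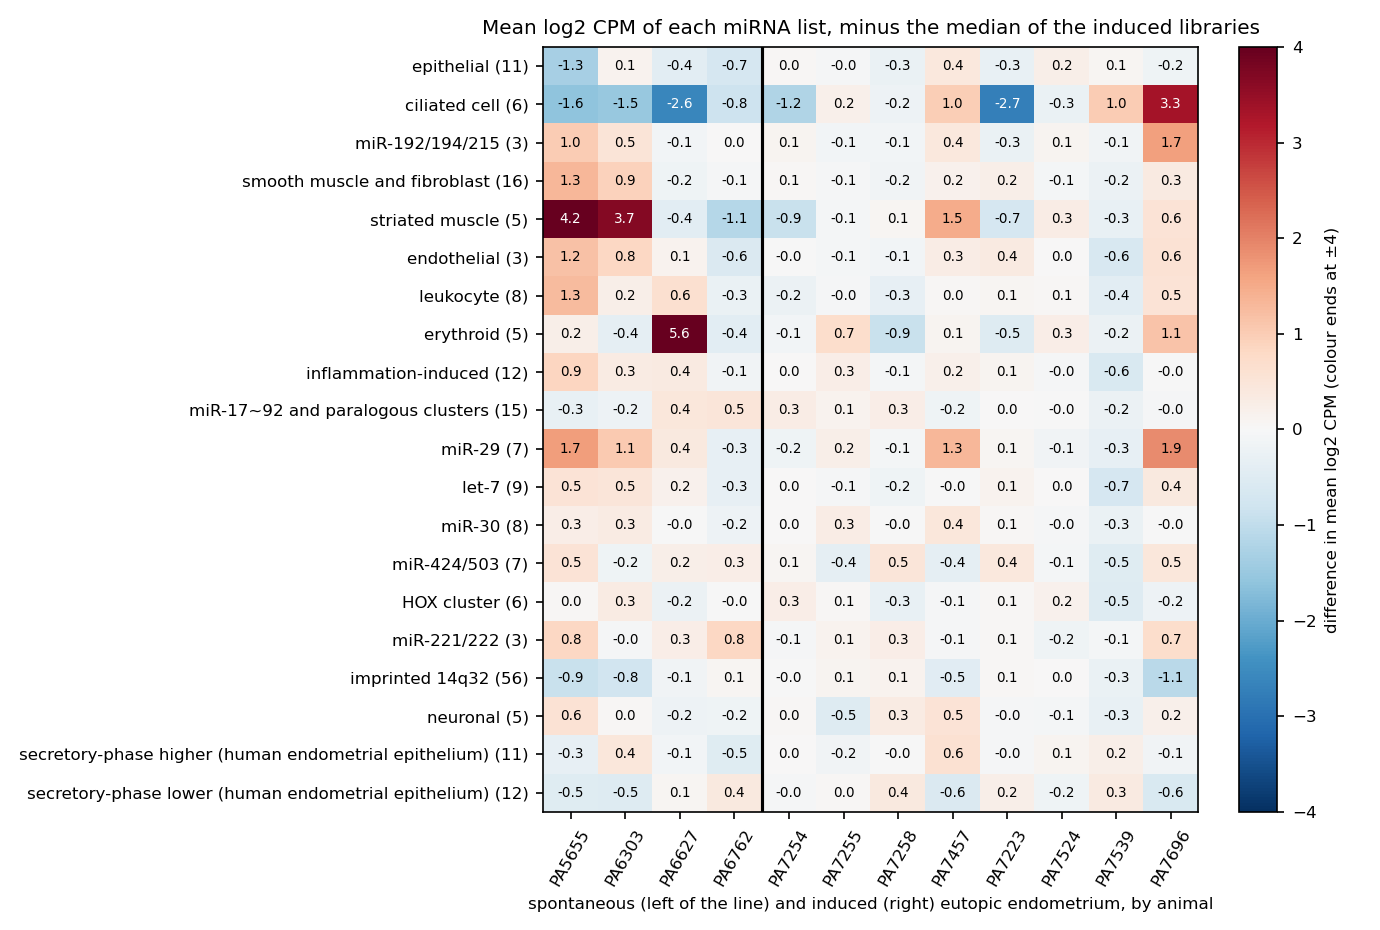
For each list of miRNAs (number measured in brackets) and each animal, the mean log2 CPM of its members minus the median of that mean over the induced libraries. Spontaneous animals stand left of the line, induced animals right of it. The strong colours sit in a few animals: striated muscle in PA5655 and PA6303 and erythroid in PA6627. The ciliated cell list is high in induced PA7696 and low in PA6627 and induced PA7223, and every spontaneous animal lies below its induced median.

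Epithelial miRNAs overlapped between the groups, with a list median below 0 that remained so with each spontaneous animal left out in turn. miR-141-3p, the most abundant member of the miR-200 family in these libraries, which keeps cells epithelial by repressing ZEB1 and ZEB2, was at 6818, 12833, 5907 and 4668 CPM in PA5655, PA6303, PA6627 and PA6762, against 4750 to 18162 CPM (median 11406) in induced endometrium. PA6303 lay above the induced median and the other 3 below it. miR-200c-3p was at 221, 731, 484 and 485 CPM against 462 to 1876 CPM (median 779), so that each spontaneous level lay below the induced median. Their log2 fold changes were −0.64 (standard error 0.39) and −1.01 (standard error 0.40).

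Of the 11 measured epithelial miRNAs, 0 passed, 3 were lower at an unadjusted p under 0.05 (miR-200c-3p, miR-200a-3p and miR-429), and 10 had a log2 fold change below 0. The list median was −0.64, with −0.91 under library totals and −0.45 to −0.86 when one spontaneous animal was left out. miR-200a-5p, the minor strand of miR-200a and outside that list, was at 11.95, 24.2, 14.6 and 14.4 CPM against 20.2 to 35.3 CPM (median 30.4), a log2 fold change of −0.80 (standard error 0.28). miR-182-5p (−0.13), miR-183-5p (0.00) and miR-96-5p (−0.02), which come from one cluster, lay at the median of all miRNAs. miR-205-5p did not reach the filter, with at most 25 counts.

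Ciliated cell miRNAs had the most negative median of the lists with a measured member, −3.46 over 6 measured members, with 5 lower at an unadjusted p under 0.05. miR-34b/c and miR-449 are related miRNAs that are needed for multiciliated cells. miR-34c-5p was at 9.35, 26.0, 8.12 and 29.4 CPM in PA5655, PA6303, PA6627 and PA6762, and at 9.65 to 1306 CPM (median 45.2) in induced endometrium. PA7696 alone held 1306 CPM and the other 7 induced libraries 9.65 to 85.9 CPM. miR-34b-5p was at 0.520, 2.24, 1.08 and 1.91 CPM against 1.21 to 202 CPM (median 5.67), with 1 count in PA5655, and PA7696 was again the highest.

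The log2 fold changes were −4.35 for miR-34b-5p (standard error 1.59, adjusted p = 0.353) and −3.45 for miR-34c-5p (standard error 1.41, adjusted p = 0.386) in edgeR's quasi-likelihood test. Without PA7696 they were −2.05 and −1.21, and the list median was −1.73. miR-449a, encoded apart from miR-34b/c, was at 35.3, 7.18, 14.3 and 38.5 CPM against 4.83 to 140 CPM (median 47.2), with a log2 fold change of −1.31. PA7696 held 48.1 CPM of miR-449a, close to the induced median.

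After TMM scaling, the groups did not overlap for 1 miRNA that was higher in spontaneous endometrium (0.197% of 507) and 2 that were lower (0.394%). let-7a-3p, the minor strand of let-7a, was at 67.0, 83.5, 79.8 and 80.7 CPM in PA5655, PA6303, PA6627 and PA6762, against 21.8 to 64.4 CPM (median 54.2) in induced endometrium. Its log2 fold change was 0.67 (standard error 0.26, edgeR adjusted p = 0.363), while the main strand let-7a-5p was at 0.25. The lowest induced level was that of PA7539, without which the log2 fold change was 0.53. Under library totals the groups overlapped widely for let-7a-3p. PA5655, with 129 counts in 3607126, then lay below every induced library except PA7539, with 81 in 2592999. PA6303, with 186 in 3768946, lay below most induced libraries, such as PA7258 with 364 in 4680185.

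miR-361-3p was the lower one with the larger difference, at 136, 158, 120 and 127 CPM against 179 to 523 CPM (median 201). Its log2 fold change was −0.84 (standard error 0.31, exact permutation p = 0.00808, two-sided, edgeR adjusted p = 0.353). The 523 CPM were those of PA7539, and the other 7 induced libraries had 179 to 241 CPM, so that without PA7539 the log2 fold change was −0.62. miR-107, from an intron of a pantothenate kinase gene, was at 407, 459, 478 and 431 CPM against 480 to 762 CPM (median 560), a log2 fold change of −0.38 (standard error 0.19). For miR-107 the gap between the groups was small, 478 CPM in PA6627 against 480 CPM in the lowest induced library.

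miR-4446-3p and miR-1180-3p, to which no clear role is ascribed, overlapped by one library each. miR-4446-3p was at 0.520, 1.35, 5.41 and 1.06 CPM against 1.84 to 104 CPM (median 14.2), with PA7696 at 1.84 and the other 7 induced libraries at 9.23 to 104 CPM. In PA5655 this was 0.520 CPM, below the floor of 1.56 CPM in that library. Its log2 fold change was −3.46 (standard error 0.99, edgeR adjusted p = 0.167, exact permutation p = 0.00404). miR-1180-3p was at 9.87, 30.1, 18.4 and 25.8 CPM against 28.9 to 89.0 CPM (median 38.8), a log2 fold change of −1.10 with the same permutation p. Without PA7539 the log2 fold changes were −2.58 and −0.91.

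miR-23b-3p, which lies in a cluster with miR-27b and miR-24, was at 5078, 4830, 2124 and 3110 CPM against 1750 to 2877 CPM (median 2059). Its log2 fold change was 0.82 (standard error 0.24, edgeR adjusted p = 0.167) and 0.24 without PA5655 and PA6303. miR-24-3p was at 1474, 1203, 711 and 600 CPM against 435 to 727 CPM (median 631), a log2 fold change of 0.71. After TMM scaling, PA5655 and PA6303 exceeded every induced library for both miRNAs, and PA6762 did so for miR-23b-3p. Under library totals neither PA5655 nor PA6303 exceeded induced PA7539 for miR-24-3p. The counts were 2837 in 3607126 for PA5655, 2681 in 3768946 for PA6303 and 2094 in 2592999 for PA7539. miR-10399-3p was at 4.68, 5.39, 3.25 and 5.72 CPM against 4.23 to 21.7 CPM (median 10.3), a log2 fold change of −1.27.

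miR-21-5p, the miRNA the study followed for its part in fibrosis, overlapped between the diseases in the endometrium. It was at 34696, 19982, 16802 and 17330 CPM in PA5655, PA6303, PA6627 and PA6762, against 7146 to 22657 CPM (median 17736) in induced endometrium. After TMM scaling PA5655 lay above the induced range and the other 3 inside it. Under library totals PA5655, with 66777 counts in 3607126, lay inside that range and below most induced libraries. One of these was PA7255, with 128319 counts in 5461814. The log2 fold change was 0.37 (95% confidence interval −0.24 to 0.97, edgeR adjusted p = 0.638), −0.06 under library totals and 0.07 without PA5655. The minor strand miR-21-3p was at 1307, 993, 805 and 923 CPM against 490 to 1599 CPM (median 1109), a log2 fold change of −0.08 (−0.69 to 0.53).

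The miR-29 family, which represses collagens and other matrix genes, had a median log2 fold change of 0.48 over 7 measured miRNAs, and 0 had an unadjusted p under 0.05. miR-29a-3p was at 3258, 1619, 570 and 311 CPM against 304 to 1941 CPM (median 554), a log2 fold change of 0.96 (standard error 0.57). Here too PA5655 and PA6303 stood above PA6627 and PA6762, and the list median was −0.47 without those 2 animals and −0.21 under library totals.

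The hypoxia-induced miR-210-3p, a target of HIF, was at 26.0, 272, 239 and 151 CPM in PA5655, PA6303, PA6627 and PA6762, against 99.1 to 768 CPM (median 405). Each spontaneous level lay below the induced median and PA5655 below every induced library. The log2 fold change was −1.20 (standard error 0.54, edgeR adjusted p = 0.436), and −0.84 without PA5655. The minor strand miR-210-5p was at −1.13.

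Among the 5 most abundant miRNAs, those other than miR-143-3p had intervals of the fold change that included 0. miR-10b-5p, encoded in a HOX cluster, took 25.2% to 34.1% of the counts in spontaneous and 23.4% to 36.6% in induced endometrium. Its log2 fold change after TMM scaling was 0.57 (95% confidence interval −0.07 to 1.21). miR-10a-5p was at −0.27 (−0.83 to 0.28), miR-26a-5p at 0.58 (−0.11 to 1.26) and miR-181a-5p at −0.74 (−1.51 to 0.02). The 9 let-7 miRNAs had a median of 0.14, the 8 miR-30 miRNAs of 0.03, the 6 HOX cluster miRNAs of 0.10 and the 15 miRNAs of miR-17-92 and its paralogs of 0.11, each with 0 or 1 member at an unadjusted p under 0.05.

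The 3 endothelial miRNAs, led by miR-126, which supports vessel integrity, had a median log2 fold change of 0.53 and 0 with an unadjusted p under 0.05. That median was 0.13 without PA5655, −0.28 without PA5655 and PA6303, and 0.01 under library totals. The medians were 0.38 over 3 miRNAs of the miR-221 and miR-222 pair, 0.10 over 7 miRNAs around miR-424 and miR-503, and 0.14 over 3 miRNAs of the miR-192, miR-194 and miR-215 family. Of 56 measured miRNAs of the imprinted 14q32 cluster, 39 were below 0, 1 was lower at an unadjusted p under 0.05 (miR-485-5p) and the median was −0.20. Of 11 measured miRNAs listed as higher in secretory-phase human endometrial epithelium, 2 were lower at an unadjusted p under 0.05 and the median was −0.13. The 12 listed as lower in that phase had 0 and the same median of −0.13. Without PA5655 and PA6303 the medians were −0.47 for the first and 0.15 for the second list, so that they then lay on opposite sides of 0, and a difference in cycle phase between the groups was not tested.

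**Figure D4:**
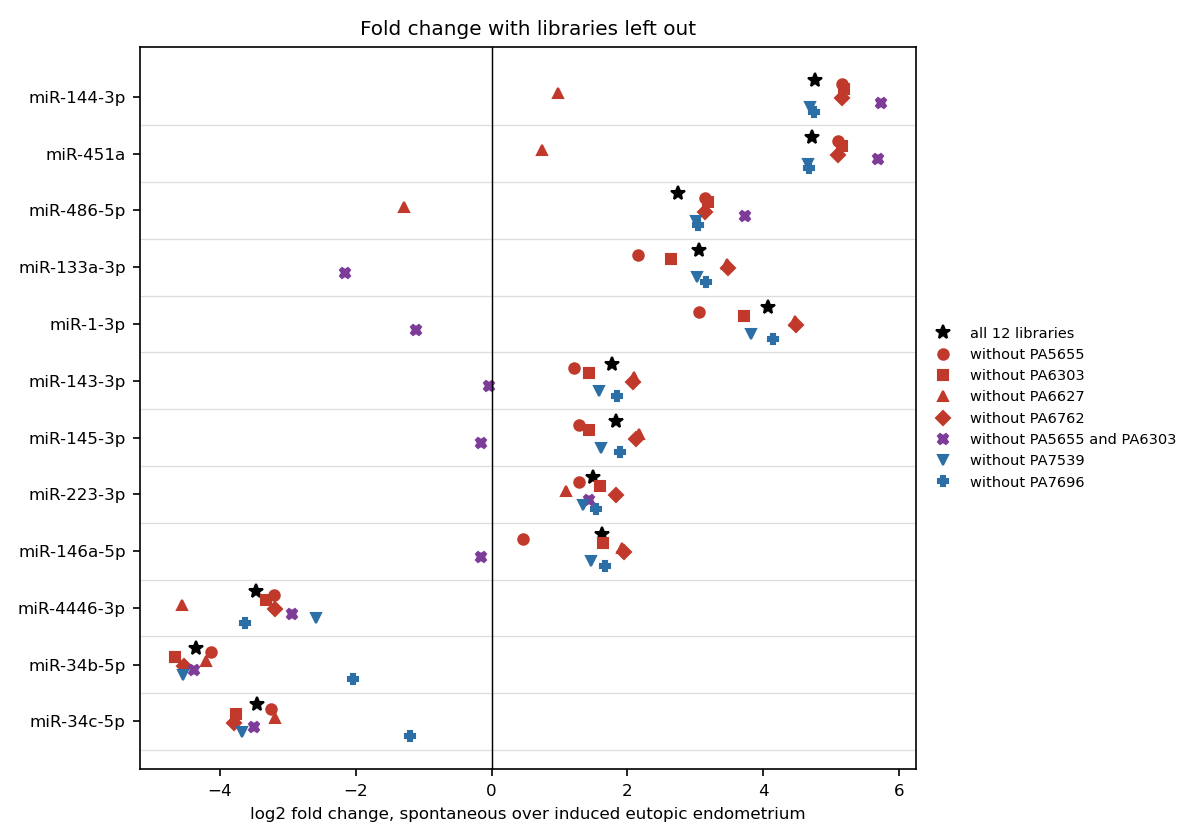
Log2 fold change of spontaneous over induced eutopic endometrium for 12 miRNAs in fits of all 12 libraries (stars) and with the named animals left out. The red cell miRNAs move towards 0 without PA6627 (miR-144-3p to 0.98, against 4.77 with all libraries), the muscle miRNAs cross 0 without PA5655 and PA6303, and the miR-34 miRNAs shrink without induced PA7696.

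How many miRNAs passed depended on which spontaneous animal was in the fit. In edgeR's quasi-likelihood test 3 of 506 passed without PA6303 (0.593%), 5 of 504 without PA6627 (0.992%), 8 of 499 without PA6762 (1.6%) and 3 of 502 without PA5655 and PA6303 together (0.598%). Leaving out PA5655, or any one induced animal, gave 0. The 3 without PA6303, and the 3 without both, were miR-451a, miR-144-3p and miR-144-5p. The 5 without PA6627 were miR-133b, miR-143-3p, miR-145-3p, miR-143-5p and miR-23b-3p. The 8 without PA6762 joined both kinds: the 3 red cell miRNAs, miR-133b, miR-143-3p, miR-1-3p, miR-145-3p and miR-223-3p. All of these had higher levels in spontaneous endometrium, and they were named after their values were seen.

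The test also mattered. Run on the same counts, edgeR-robust, the variant the study used, called 11 of 507 (2.17%), 9 higher and 2 lower in spontaneous endometrium. It gives outlying values less weight and was run here with a likelihood ratio test instead of the quasi-likelihood test, so both changes enter its calls. The 9 were miR-1-3p, miR-133b, miR-143-3p, miR-133a-3p, miR-223-3p, miR-145-3p, miR-133a-5p, miR-23b-3p and miR-142-5p, and the 2 were miR-4446-3p and miR-34b-5p. In that fit miR-486-5p had a log2 fold change of −0.57. DESeq2's Wald test called 3 of 502 (0.598%), miR-4446-3p, miR-143-3p and miR-1-3p, and limma's voom with sample weights called 0. At an unadjusted p under 0.05 these tests had 65, 55 and 52 miRNAs.

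The lesions of the same animals gave each miRNA's difference at a second site. In lesions 0 of 467 miRNAs (0%) passed in edgeR's quasi-likelihood test, with 37 at an unadjusted p under 0.05. With edgeR-robust 7 passed, and the paper, which used that variant, reports a small share of miRNAs differing between spontaneous and induced lesions. Among leukocyte miRNAs the log2 fold changes in endometrium and lesions were 1.63 and 2.93 for miR-146a-5p, 1.36 and 1.66 for miR-142-5p and 1.17 and 1.89 for miR-142-3p, all above 0, but 1.49 and −0.64 for miR-223-3p. The red cell miRNAs were at 4.77 and 0.19 (miR-144-3p) and 4.71 and 0.63 (miR-451a), and the muscle miRNAs at 1.78 and −0.22 (miR-143-3p) and 4.07 and −0.83 (miR-1-3p). The epithelial list had medians of −0.64 and −1.88.

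The difference between both sites was tested with the animal as a block. Of 527 miRNAs 0 (0%) passed, the smallest adjusted p was 0.768 and 16 had an unadjusted p under 0.05. The smallest p belonged to miR-144-3p, for which the log2 fold change was 4.07 higher in endometrium than in lesions (standard error 1.03), and PA6627 is the animal behind its endometrial value. For miR-146a-5p the difference was −0.79.

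**Figure D5:**
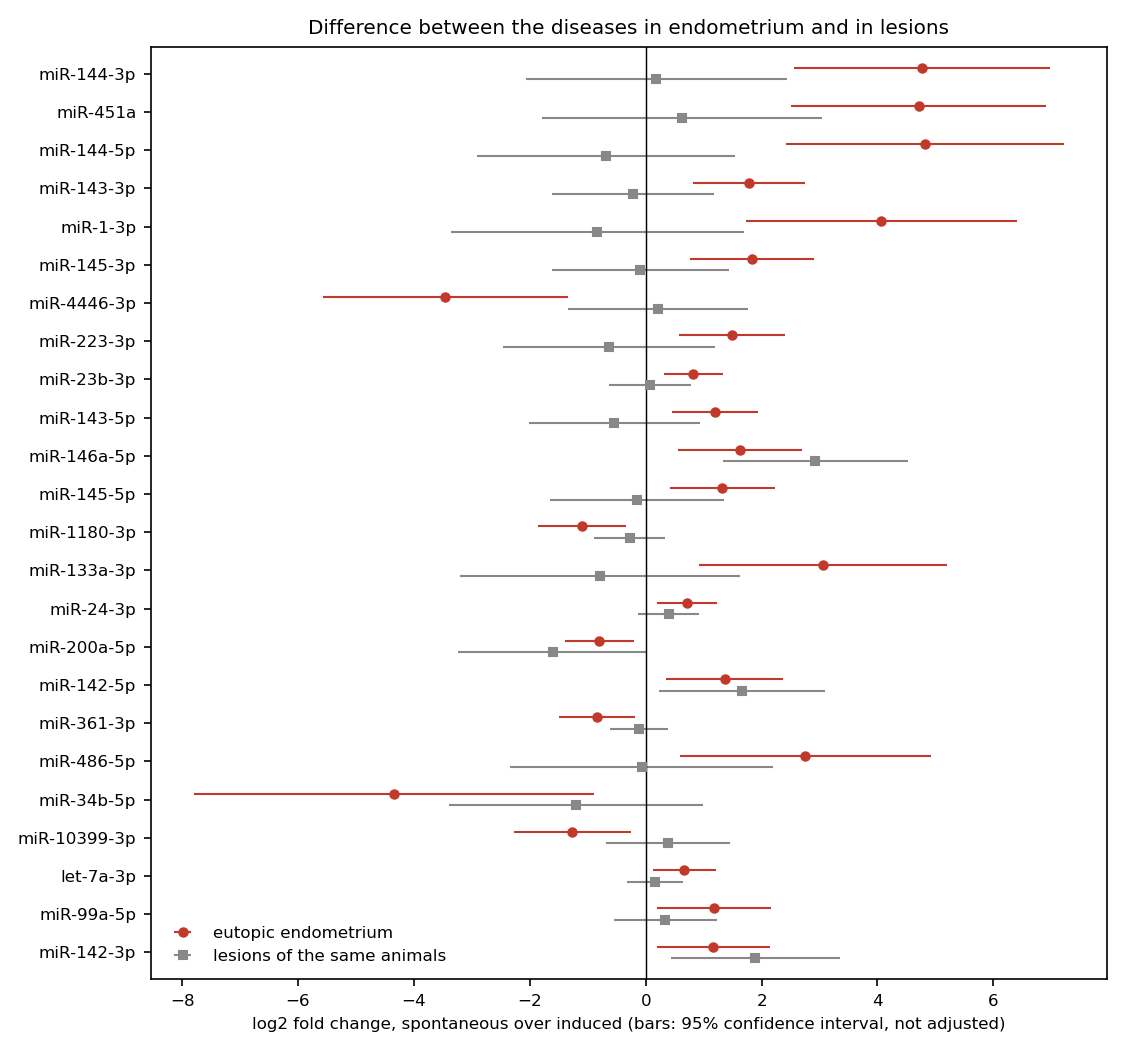
Log2 fold changes of spontaneous over induced disease for 24 miRNAs, in eutopic endometrium (red circles) and in lesions of the same animals (grey squares), with 95% confidence intervals not adjusted for the number tested. The intervals of miR-143-3p, miR-1-3p, miR-144-3p and miR-451a lie above 0 in endometrium and span 0 widely in lesions, while those of miR-146a-5p and both strands of miR-142 lie above 0 at both sites.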

How the data were processed

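Total RNA had been isolated with Trizol and libraries made with the Illumina TruSeq small RNA kit. The authors trimmed reads with Trim Galore 0.3.3, counted them against human miRBase 22 miRNAs with miRDeep2 0.0.7, and deposited raw counts per mature miRNA, precursor and library. A baboon miRNA that differs from the human sequence can be missed. How reads matching several miRNAs were handled is not given in the sources used here. Of 2888 rows, the precursor row with the highest total stood for each of 2656 mature miRNAs (168 had several).

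The deposited counts were tested in R 4.3.3 with edgeR 4.0.16 (TMM, robust quasi-likelihood), on the 12 eutopic libraries, keeping miRNAs that reached 2 CPM in 2 or more. The standard error is the log2 fold change divided by the square root of F. limma 3.58.1 and DESeq2 1.42.0 were alternatives. Permutation tests used log2 CPM with a prior count of 1. Within groups no libraries were duplicates (chi-square per degree of freedom 134.6 or more in 34 pairs). The scripts were tested on simulated data. Floors cover counting error only.

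Named miRNAs are those with an adjusted p under 0.05 (0), then the smallest p among miRNAs averaging 3 or more in log2 CPM (24), the 5 most abundant, both miR-21 strands and the 2 most abundant of each list. Others named were chosen after their values were seen. Lists and rules were chosen with earlier results of these data known.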

Additional observations from a re-analysis of the deposited data

Results flagged for a closer look

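Of 126 sets of levels examined, one per named miRNA and group, 17 held an animal far from the rest of its group by Dixon's criterion at 95%, where chance gives about 1 in 20. Several of the 17 are miRNAs of one transcript or one animal and do not count as separate observations.

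In spontaneous endometrium the animals were PA6627, with miR-144-3p at 383 CPM against 6.28 to 8.26 CPM in the other 3 and miR-486-5p at 21765 CPM against 283 to 413 CPM, and PA5655, with miR-210-5p at 1.04 CPM against 9.87 to 10.4 CPM. That level of miR-210-5p rests on 2 counts, below the floor of 1.56 CPM in PA5655.

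In induced endometrium PA7696 stood out with miR-34b-5p at 202 CPM against 1.21 to 13.0 CPM in the other 7, miR-34c-5p at 1306 CPM against 9.65 to 85.9 CPM, and miR-192-5p at 1477 CPM against 354 to 619 CPM.

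PA7539, the library with the fewest counts, was apart for 11 miRNAs. It was lowest for miR-143-3p (34001 CPM against 69908 to 115194), miR-145-3p (73.7 against 168 to 344), let-7a-3p (21.8 against 39.8 to 64.4), miR-424-5p (506 against 1057 to 1974), miR-126-5p (1405 against 4077 to 6929), miR-21-5p (7146 against 14741 to 22657), let-7f-5p (6866 against 18308 to 33946) and miR-199a-3p (7974 against 14838 to 22456). It was highest for miR-1180-3p (89.0 CPM against 28.9 to 46.8), miR-361-3p (523 against 179 to 241) and miR-210-5p (59.7 against 6.90 to 16.6). The part of its depth in these values was not tested.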

How the results depend on the processing

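No paired analysis was possible because each animal gave 1 eutopic library and replicate codes are not shared between the diseases. The 0 miRNAs that passed in endometrium became 11 with edgeR-robust, 3 with DESeq2, 3 without PA5655 and PA6303, and 0 to 8 when one animal was left out. In lesions 0 became 7 with edgeR-robust and 1 with DESeq2, and the difference between both sites had 3 with either. Groups did not overlap for 3 miRNAs after TMM scaling and for 5 under library totals, and let-7a-3p was not among the 5. Counts with DESeq2's median-of-ratios factors, no filter, filterByExpr, summed precursors, precursors kept apart, no robust shrinkage, voom and one fit of all 24 libraries stayed within 1.5 times where they were run. Without robust shrinkage the quasi-likelihood test in endometrium had a smallest adjusted p of 0.0545, close to the threshold of 0.05.

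For the 63 named miRNAs, 1403 fold changes kept direction and side of the threshold, 29 newly passed and 77 turned direction. Without PA5655 and PA6303 the log2 fold change became −0.035 for miR-143-3p, −1.11 for miR-1-3p, −0.16 for miR-145-3p, −0.030 for miR-143-5p, −0.15 for miR-146a-5p, −2.16 for miR-133a-3p, −0.79 for miR-99a-5p, −0.18 for miR-10b-5p, −0.34 for miR-26a-5p, −0.77 for miR-29a-3p, −0.17 for miR-126-3p, −0.28 for miR-126-5p, −0.057 for miR-21-5p, −2.02 for miR-153-3p, −0.058 for let-7a-5p, −0.072 for let-7f-5p, −1.23 for miR-29c-3p, 0.029 for miR-182-5p, −0.019 for miR-199a-3p, −0.59 for miR-194-5p, −0.40 for miR-192-5p, 0.37 for miR-128-3p, −0.40 for miR-30a-5p, 0.042 for miR-25-3p and −0.12 for miR-411-5p. Under library totals it became −0.057 for miR-21-5p, −0.15 for let-7a-5p, −0.13 for let-7f-5p, −0.21 for miR-29c-3p, −0.22 for miR-199a-3p, −0.16 for miR-222-3p, −0.41 for miR-194-5p, −0.33 for miR-192-5p, −0.38 for miR-30a-5p, −0.25 for miR-342-3p and −0.29 for miR-411-5p, where the median of all miRNAs was −0.30. edgeR-robust gave −0.57 for miR-486-5p and 0.0024 for miR-214-3p. DESeq2 and its median-of-ratios factors gave 0.012 for miR-25-3p. voom gave 0.084 for miR-30d-5p, 0.097 for miR-424-3p, 0.19 for miR-513a-5p, 0.023 for miR-214-3p, −0.083 for miR-342-3p and −0.062 for miR-411-5p. No filter gave −0.0063 for miR-30a-5p and −0.021 for miR-411-5p, and precursors kept apart gave −0.0041 for miR-411-5p.

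With one animal left out, the fold changes that crossed 0 ranged from −1.28 to 3.19 for miR-486-5p, −0.27 to 1.33 for miR-153-3p, −0.44 to 1.10 for miR-29c-3p, −0.35 to 0.41 for miR-194-5p, −0.15 to 0.49 for miR-192-5p, −0.39 to 0.15 for miR-128-3p, −0.12 to 0.22 for miR-30a-5p, −0.20 to 0.15 for miR-342-3p, −0.21 to 0.081 for miR-214-3p, −0.11 to 0.12 for miR-411-5p, −0.11 to 0.022 for miR-25-3p, −0.020 to 0.22 for miR-199a-3p, −0.54 to 0.0072 for miR-424-3p, −0.31 to 0.050 for miR-182-5p, −0.23 to 0.018 for miR-21-3p and −0.37 to 0.012 for miR-30b-5p. The cause of these changes was not tested. With 4 spontaneous animals, a low level near 3 counts or a difference under 2-fold could often not be resolved.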
